A study of Mus musculus with 8 samples.

Results

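The genes *Cbln1*, *Cbln2*, *Cbln3*, *Cbln4*, *C1ql1*, *C1ql2*, *C1ql3*, *C1ql4*, and *Nrn1* encode 9 synaptic organizers of the cerebellin, C1q-like, and neuritin families, and their expression was compared between the arcuate nucleus (Arc), the ventromedial hypothalamus (VMH), the dorsomedial hypothalamus (DMH), and the lateral hypothalamus (LH) of adult mice. Every probe whose RefSeq accession belongs to 1 of these genes was taken, which gave 1 probe and 1 spot per gene, 9 of the 20284 genes named and 9 of the 55681 probes on the array. The nuclei had been cut out by laser microdissection from 2 female C57BL/6J mice at 3 months of age, for which no allele or treatment is named, and there were 2 arrays per nucleus, Arc1 and Arc2, VMH1 and VMH2, DMH1 and DMH2, and LH1 and LH2, 8 in all. Which array came from which mouse is not stated, so the errors given here measure the spread between 2 RNA samples of a nucleus. The question was how each gene is distributed over the 4 nuclei. The genes were chosen with their measured levels on these arrays already known, so these levels are given as a description and without a test. Tests are given for their receptors and for other gene lists.

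Cerebellins and C1q-like proteins are secreted, assemble through a C1q domain, and work in the synaptic cleft. Cerebellins hold neurexins of the presynaptic membrane and delta glutamate receptors of the postsynaptic membrane together, and the best known case is Cbln1, which granule cells release onto Purkinje cells of the cerebellum. C1q-like proteins bind the adhesion receptor Adgrb3, and in the hippocampus C1ql2 and C1ql3 also link Nrxn3 to kainate receptors. Neuritin, the product of *Nrn1*, is a small protein attached to the outer membrane by a lipid anchor, is induced by neuronal activity, and promotes the growth and maturation of neurites and synapses.

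The stretch just upstream of the transcription start is shown for *C1ql2*, *C1ql3*, and *Cbln4*, whose levels over the nuclei differed from one another in direction. The sequences are those of RefSeq in the mouse build GRCm38.p6, at chr1:120340332-120340581 on the plus strand for *C1ql2*, chr2:13010865-13011114 on the minus strand for *C1ql3*, and chr2:172043467-172043716 on the minus strand for *Cbln4*. Each runs for 250 bases 5′ to 3′ in the direction of transcription and ends at the base before the start, and capitals mark the motifs that were found.
C1ql2: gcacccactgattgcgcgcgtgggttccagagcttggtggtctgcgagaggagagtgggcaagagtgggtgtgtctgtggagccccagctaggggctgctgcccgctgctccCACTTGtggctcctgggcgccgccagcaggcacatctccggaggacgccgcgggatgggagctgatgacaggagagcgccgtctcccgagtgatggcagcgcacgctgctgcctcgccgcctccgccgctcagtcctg
C1ql3: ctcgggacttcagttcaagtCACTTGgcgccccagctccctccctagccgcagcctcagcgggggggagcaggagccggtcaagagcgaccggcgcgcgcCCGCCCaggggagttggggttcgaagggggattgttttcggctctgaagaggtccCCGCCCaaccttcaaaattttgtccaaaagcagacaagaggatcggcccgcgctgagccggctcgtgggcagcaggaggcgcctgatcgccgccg
Cbln4: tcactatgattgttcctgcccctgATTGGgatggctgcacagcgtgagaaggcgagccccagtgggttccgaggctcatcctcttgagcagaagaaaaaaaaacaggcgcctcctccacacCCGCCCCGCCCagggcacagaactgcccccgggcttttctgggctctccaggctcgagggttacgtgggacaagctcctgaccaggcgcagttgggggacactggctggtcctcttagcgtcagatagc
The motifs searched for on both strands were the TATA box TATAAA, the CCAAT box CCAAT, the GC box GGGCGG, the cAMP response element TGACGTCA, the E-box CACGTG, and CAAGTG, the core bound by Nk2 homeobox factors, to which the hypothalamic factor Nkx2-1 belongs. The *C1ql2* stretch held the Nk2 core 1 time, beginning 138 bases upstream of the start. In the *C1ql3* stretch there were 2 separate GC boxes, at 150 and 95 bases, and 1 Nk2 core at 230 bases. The *Cbln4* stretch held a CCAAT box at 226 bases and 2 GC boxes at 129 and 124 bases, which overlap. Among all 32851 promoter stretches of this length, 11.6% held the Nk2 core, 32.7% the GC box, and 33.8% the CCAAT box. The TATA box, the cAMP response element, and the E-box, present in 12.4%, 1.55%, and 6.02% of all stretches, were not among the letters of these 3. The GC content was 68.8% for *C1ql2*, 66.4% for *C1ql3*, and 60.8% for *Cbln4*. These matches describe letters and say nothing about binding.

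The values below are signal intensities scaled to the 75th percentile of each array, which keeps them in the range of the deposited intensities, and they compare 1 probe between nuclei and never 1 probe with another. Before scaling, the 75th percentile ranged from 815 to 1239, and 46.3% to 52.1% of the probes of an array were well above background. The lowest scaled signal well above background lay between 79.3 and 132, and signals that the software did not place well above background are termed not measured. Replicate arrays correlated at 0.938 in the LH and at 0.971 to 0.981 elsewhere, and LH2 was closer to DMH2, at 0.954, than to LH1. Markers of the Arc (*Agrp*, *Npy*, *Pomc*, *Kiss1*, and *Ghrh*, summed signal 145906 to 155249 in the Arc and 3453 to 6017 elsewhere), the VMH (*Nr5a1*, *Fezf1*, and *Sox14*, 18438 to 20313 in the VMH and 487 to 799 elsewhere), and the DMH (*Grp*, *Npvf*, and *Prdm13*, 8377 and 11001 in the DMH) were highest in the nucleus of their label. Several of these markers were picked by the study on these arrays. The DMH markers summed to 923 on LH1 and 90 on LH2, and to 503 on VMH1 and 114 on VMH2. *Hcrt* and *Pmch*, the neuropeptide genes of LH neurons, were also high on the DMH arrays, and their values are given after those of *C1ql3*.

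Of the 9 genes, 7 were measured on each of the 2 arrays of 1 nucleus or more, and 4 of these, *Cbln1*, *Cbln2*, *Cbln4*, and *C1ql1*, were measured on all 8 arrays. *C1ql2* was measured on 7 arrays, and *C1ql3* and *Nrn1* only on the 4 arrays of the DMH and LH. For 5 of the 7, *Cbln1*, *Cbln2*, *C1ql2*, *C1ql3*, and *Nrn1*, the mean log2 signal differed at least 4-fold between the highest and the lowest nucleus, and among all 28896 probes that passed the same filter 7.48% did. Both arrays of the highest nucleus were above the other 6 arrays for 6 of the 7, the exception being *Cbln2*, against 31% of all these probes. The genes were chosen with these values in view, and nothing is read from the comparison with the other probes.

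**Figure D1:**
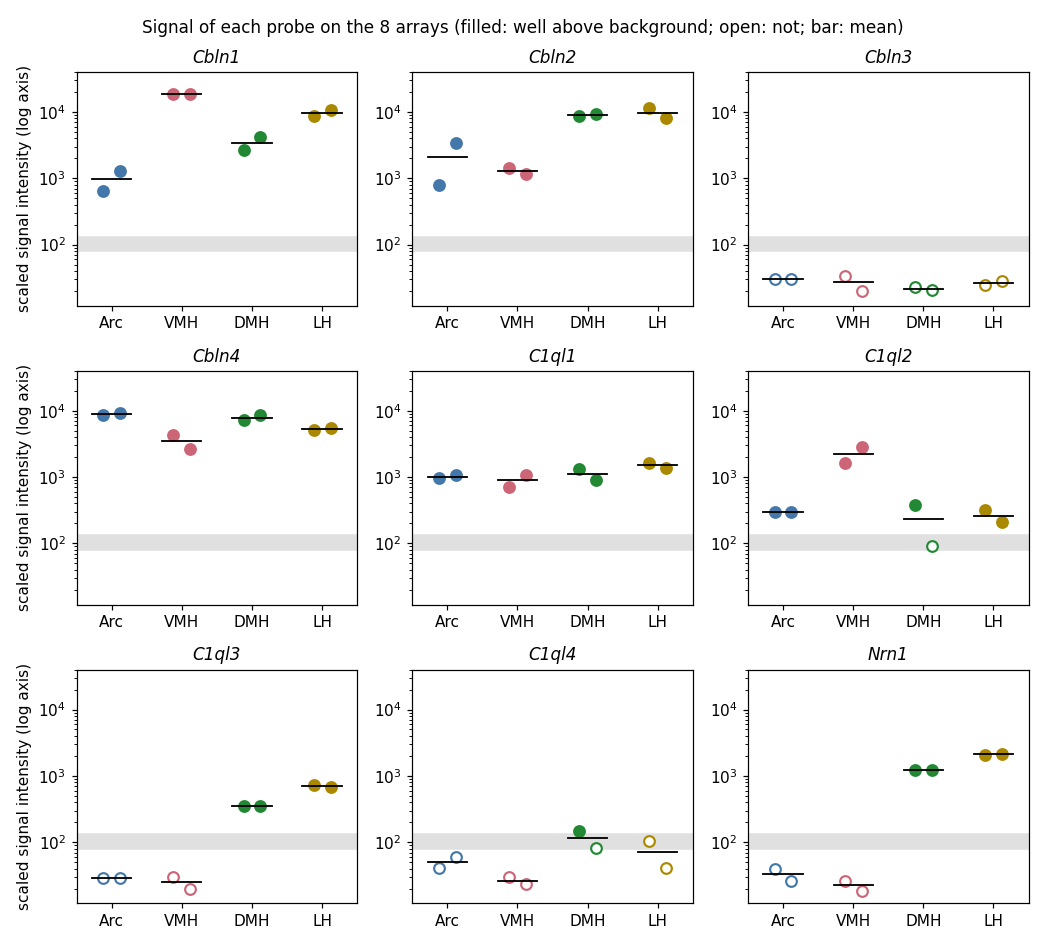
Scaled signal intensity (log axis) of the probe of each of the 9 genes on the 2 arrays of each nucleus, filled where well above background and open where not, with a bar at the arithmetic mean of the 2 arrays. The gray band spans the lowest measured signals of the 8 arrays, 79.3 to 132. *Cbln1* and *C1ql2* were highest in the VMH, *Cbln4* was lowest there, and *C1ql3* and *Nrn1* were above background only in the DMH and LH.

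*Cbln1*, the founding cerebellin (probe A_55_P1984591), was highest in the VMH and lowest in the Arc. Its signal was 634 on Arc1 and 1299 on Arc2, 18430 on VMH1 and 18611 on VMH2, 2670 and 4177 on the respective DMH arrays, and 8562 and 10475 on those of the LH. The order VMH, LH, DMH, Arc held without overlap between the arrays of any 2 nuclei. The means were 18521 ± 128 (SD, n = 2) in the VMH, 9519 ± 1350 in the LH, 3423 ± 1070 in the DMH, and 966 ± 470 in the Arc. On the log2 scale, the VMH exceeded the Arc by 4.35 (SE 0.38), which is 20.4-fold, the DMH by 2.47, and the LH by 0.97. The LH in turn exceeded the DMH by 1.50 and the Arc by 3.38. The step between the 2 highest nuclei, VMH and LH, was thus the smallest of the order, at 1.96-fold. *Slc17a6*, the vesicular transporter that marks glutamate neurons of the hypothalamus, was also highest in the VMH, 6.35 times the Arc, 2.27 times the DMH, and 2.1 times the LH. The other glutamate markers of the list, *Slc17a7* and *Slc17a8*, were not measured on any array. Of 4 general neuron markers, only *Rbfox3* had means in the order of *Cbln1*, at 11474, 7294, 5569, and 3169. The part of these cells in the *Cbln1* pattern was not tested. In tissue samples of this kind, more cells that express a gene and more RNA per cell cannot be told apart.

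*C1ql2*, a C1q-like gene best known from hippocampal mossy fibers (probe A_52_P483959), was the other gene that was highest in the VMH, and it was low in the remaining nuclei. Its signal was 1615 on VMH1 and 2829 on VMH2, against 294 on Arc1 and 298 on Arc2, 375 on DMH1, and 315 on LH1 and 212 on LH2, while the 93.1 on DMH2 was not measured. Both VMH arrays were above the other 6, and the arrays of the Arc, DMH, and LH overlapped one another. The mean was 2222 ± 859 (SD, n = 2) in the VMH, while the Arc had 296 ± 2.76, the LH 263 ± 72.5, and the DMH 234 ± 199. The log2 difference was 2.85 (SE 0.62) to the Arc, 3.05 to the LH, and 3.52 to the DMH. The last value rested on the DMH array taken, being 2.51 without DMH2 and 4.52 without DMH1, and it was 2.38 with the normexp background correction. *Slc17a6* shares this direction too, with the ratios given for *Cbln1*. The *Cbln1* and *C1ql2* profiles differed in the second place of the order. The LH came second for *Cbln1*, whereas for *C1ql2* the Arc, DMH, and LH could not be ordered. Over the 8 arrays their log2 signals had a Pearson correlation of 0.54, given here, as for every pair below, as a description of arrays that share nuclei and slide.

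*Cbln4*, a cerebellin that also binds the receptors DCC and neogenin (probe A_52_P432245), had the opposite order, with the Arc highest and the VMH lowest. Its signal was 8596 on Arc1 and 9118 on Arc2, 7123 on DMH1, 8563 on DMH2, 5078 on LH1, 5566 on LH2, and 4311 on VMH1 and 2635 on VMH2. No array of a nucleus overlapped another nucleus, but DMH2 came close to Arc1. The means were 8857 ± 369 (SD, n = 2) in the Arc, 7843 ± 1020 in the DMH, 5322 ± 345 in the LH, and 3473 ± 1190 in the VMH. The Arc exceeded the VMH by 1.39 (SE 0.27) in log2, or 2.63-fold, and the DMH and LH exceeded it by 1.21 and 0.66. The Arc and DMH stood 0.18 apart, less than the standard error, and without scaling between arrays the difference was -0.30, with the DMH higher. The log2 signals of *Cbln4* correlated at -0.85 with those of *Cbln1* and at -0.83 with those of *C1ql2* over the 8 arrays. The GABA neuron markers *Slc32a1*, *Gad1*, and *Gad2* were likewise lowest in the VMH, but their means were highest in the LH and not in the Arc. All 3 were measured on every array, with a summed signal of 3273 to 5060 in the VMH and 29681 to 48156 in the other nuclei, and their part in the *Cbln4* pattern was not tested.

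*Cbln2*, whose product also joins neurexins and delta receptors (probe A_55_P2088178), was high in the LH and DMH and lower in the VMH and Arc. Its signal was 11251 on LH1 and 8030 on LH2, 8515 on DMH1 and 9417 on DMH2, 1424 on VMH1 and 1146 on VMH2, and 792 on Arc1 and 3411 on Arc2. The LH and DMH arrays overlapped, as did the Arc and VMH arrays, and every array of the first pair of nuclei was above every array of the second. The means were 9640 ± 2280 (SD, n = 2) in the LH, 8966 ± 638 in the DMH, 2102 ± 1850 in the Arc, and 1285 ± 196 in the VMH. On the log2 scale the LH exceeded the VMH by 2.90 (SE 0.61), or 7.44-fold, and the DMH exceeded it by 2.81. The difference between the LH and the Arc was 2.53, and it was 1.48 without Arc1 and 3.58 without Arc2, since the 2 Arc arrays were far apart. The LH and DMH were 0.09 apart, less than the standard error, and this difference changed sign without scaling, at -0.24, with quantile normalization, at -0.06, with normexp, at -0.04, and without LH1, at -0.16. The LH neuron markers *Hcrt* and *Pmch* were also higher in the LH and DMH than in the VMH and Arc. Unlike *Cbln2*, both had a higher mean in the VMH than in the Arc.

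*Nrn1*, encoding neuritin (probe A_51_P308844), was measured only in the LH and DMH. Its signal was 2099 on LH1 and 2135 on LH2, and 1208 on DMH1 and 1245 on DMH2. On the Arc and VMH arrays it was between 18.7 and 40, not well above background. The means of the 2 measured nuclei were 2117 ± 25.4 (SD, n = 2) for the LH and 1226 ± 26.2 for the DMH, and their arrays did not overlap. The LH exceeded the DMH by 0.79 (SE 0.27) in log2, or 1.73-fold, and by 0.47 without scaling between arrays. For the Arc and VMH only lower bounds of the ratio can be given, taking for each array the lowest signal that was well above background. Against the Arc, the LH was at least 18.7-fold higher and the DMH at least 10.8-fold higher, and against the VMH the LH was at least 20.4-fold and the DMH at least 11.8-fold higher.

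*C1ql3*, a C1q-like gene of cortical and hippocampal projection neurons (probe A_55_P1954196), was distributed in the same way at lower signals. Its signal was 731 on LH1 and 679 on LH2, 349 on DMH1 and 356 on DMH2, and 19.6 to 30.1, not measured, on the Arc and VMH arrays. The mean of the LH, 705 ± 37 (SD, n = 2), was 2.00-fold that of the DMH, 353 ± 4.98, a log2 difference of 1.00 (SE 0.25), without overlap, which was 0.68 without scaling and 0.69 with normexp. The LH was at least 6.23-fold higher than the Arc and at least 6.78-fold higher than the VMH. For the DMH these bounds were 3.12-fold and 3.39-fold. Over the 8 arrays the log2 signals of *C1ql3* and *Nrn1* had a correlation of 1.00 after rounding, and those of *Cbln2* correlated at 0.92 with *C1ql3* and at 0.91 with *Nrn1*. The values of *C1ql3* and *Nrn1* on the Arc and VMH arrays in these correlations are background.

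**Figure D2:**
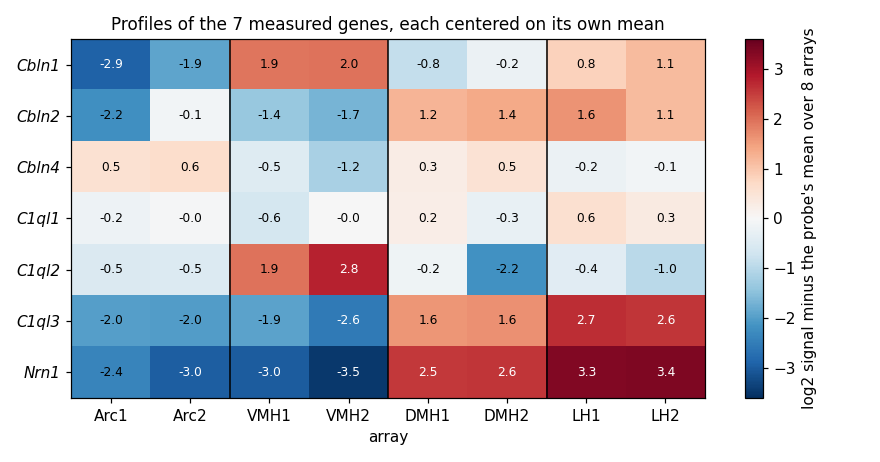
Log2 scaled signal of the 7 genes measured in at least 1 nucleus on each of the 8 arrays, minus the mean of the gene over the arrays, with the number in each cell and red above and blue below the mean. *Cbln1* and *C1ql2* share the high VMH columns, and *Cbln2*, *C1ql3*, and *Nrn1* share the high DMH and LH columns. The Arc and VMH values of *C1ql3* and *Nrn1* and DMH2 of *C1ql2* are not above background.

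The 2 LH neuron markers of the list, *Hcrt* and *Pmch*, were, like *Nrn1*, *C1ql3*, and *Cbln2*, higher in the LH and DMH than in the VMH and Arc. *Hcrt*, encoding the orexin precursor, was 105971 on LH1 and 116750 on LH2, 55940 on DMH1 and 51283 on DMH2, and 188 to 684 on the Arc and VMH arrays. *Pmch*, the gene of melanin-concentrating hormone, was 17650 and 17005 in the LH, 16253 and 11631 in the DMH, 3938 and 3140 in the VMH, and not measured in the Arc. Their summed signal ranged from 123622 to 133754 in the LH, 62914 to 72193 in the DMH, 3415 to 4623 in the VMH, and 286 to 312 in the Arc. The ratio of the LH to the DMH was 2.08 for *Hcrt*, 1.24 for *Pmch*, 1.73 for *Nrn1*, 2.00 for *C1ql3*, and 1.08 for *Cbln2*. The DMH arrays thus carried *Hcrt* and *Pmch* RNA along with that of these organizers. The paper reports that RT-PCR for *Agrp*, *Nr5a1*, *Hcrt*, and *Crh* found the dissected nuclei free of their neighbors. The part of LH neurons in the DMH values of *Nrn1*, *C1ql3*, and *Cbln2* was not tested. The 5 oligodendrocyte markers summed to 97244 and 102585 in the LH and to 10926 to 37412 elsewhere, all 5 measured on every array, and their part in the LH values was not tested either.

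**Figure D3:**
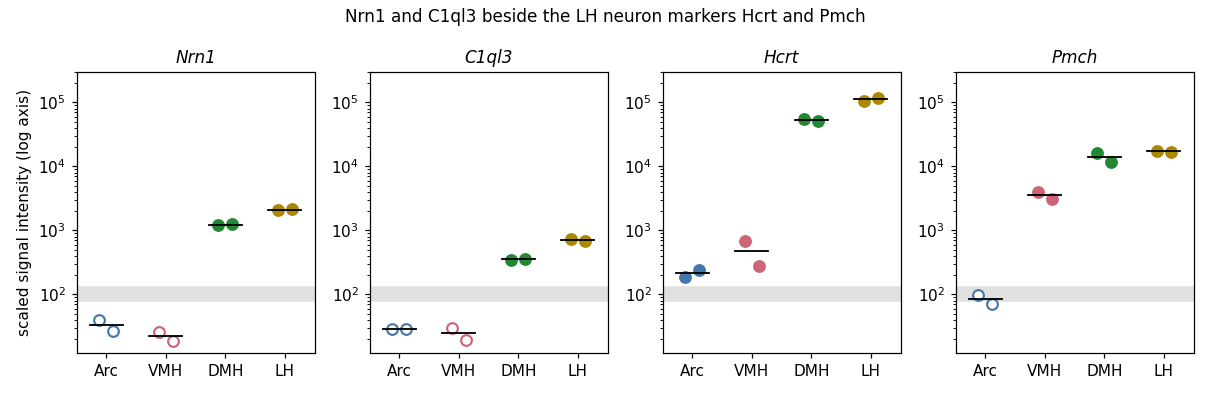
Scaled signal intensity (log axis) of *Nrn1* and *C1ql3* beside *Hcrt* and *Pmch*, the marker genes of LH neurons, on the 2 arrays of each nucleus, with symbols as in the plot of all 9 genes. All 4 genes are highest in the LH, with the DMH next, and the ratio of the LH to the DMH was 1.73, 2.00, 2.08, and 1.24, respectively.

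*C1ql1*, the ligand by which climbing fibers signal to Purkinje cells through Adgrb3 (probe A_55_P1954186), was nearly even over the nuclei. Its signal was 1633 on LH1 and 1363 on LH2, 1303 on DMH1 and 917 on DMH2, 970 on Arc1 and 1062 on Arc2, and 714 on VMH1 and 1079 on VMH2. Both LH arrays were above the other 6, and the arrays of the other nuclei overlapped. The mean was 1498 ± 191 (SD, n = 2) in the LH, 1110 ± 273 in the DMH, 1016 ± 65.5 in the Arc, and 897 ± 258 in the VMH. The LH exceeded the VMH by 0.76 (SE 0.29), the Arc by 0.56, and the DMH by 0.45 in log2, and the difference to the DMH was 0.13 without scaling. With 1 array left out, the difference to the VMH was 0.47 without VMH1 and 1.06 without VMH2, and that to the DMH was 0.70 without DMH1 and 0.19 without DMH2. The differences among the DMH, Arc, and VMH were 0.11 to 0.32, near or below the standard error.

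*C1ql4* and *Cbln3* were the genes not measured on both arrays of any nucleus. *C1ql4* (probe A_55_P2069602) was well above background only on DMH1, at 148, with 82.5 on DMH2, 103 on LH1, 40.7 on LH2, 40.8 and 60.8 on the Arc arrays, and 29.6 and 23.3 on the VMH arrays. *Cbln3*, a cerebellin that is secreted together with Cbln1 in the cerebellum (probe A_52_P246189), lay between 20.2 and 33.7 on all 8 arrays and was not measured on any. No fold change is given for *Cbln3* or, from a single measured array, for *C1ql4*.

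**Figure D4:**
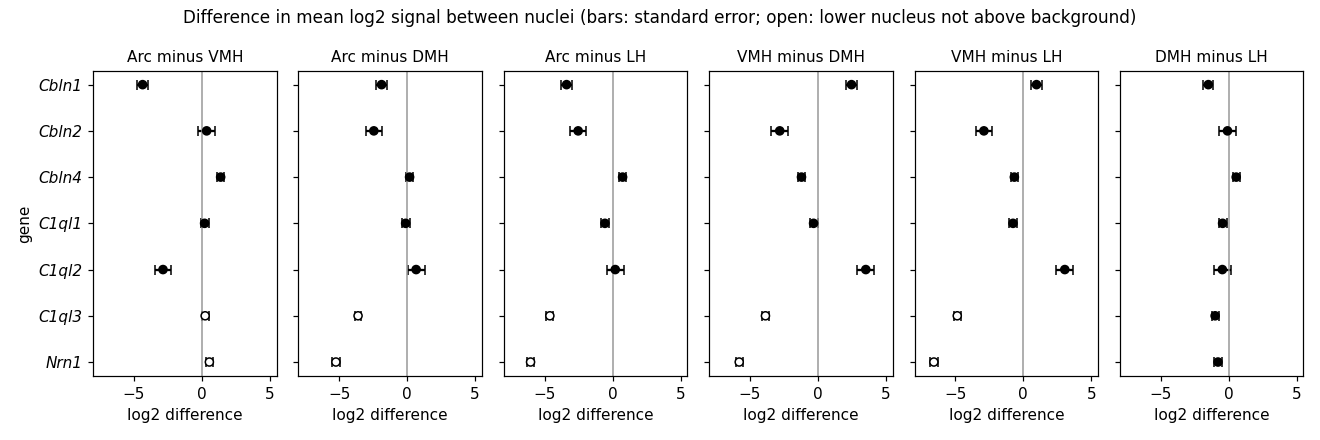
Difference in mean log2 scaled signal between 2 nuclei for the 7 genes, 1 panel for each of the 6 comparisons, with bars of 1 standard error from the linear model with 2 arrays per nucleus. Open symbols mark differences whose lower nucleus was not above background, for which only lower bounds of the ratio hold. For *C1ql3* and *Nrn1* in the Arc minus VMH panel, neither nucleus was above background, and no bound holds. *Cbln1* shows a difference in all 6 panels, and *C1ql1* stays within 0.76 of 0 in each.

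For each of the 7 genes, the 2 genes with the most similar log2 profile over the 8 arrays were sought among 2752 probes measured on all arrays with at least a 2-fold range between nuclei. The profile of *Cbln1* was closest to those of *Camta2* (r = 0.995) and *Slc2a6* (r = 0.992), and that of *C1ql2* to *Mrtfb* (r = 0.982) and *Mapk3* (r = 0.963). For *Cbln4* they were *Ramp3* (r = 0.974) and *Spdef* (r = 0.969), for *Cbln2* *Fgf13* (r = 0.965) and *Elavl2* (r = 0.956), and for *C1ql1* *Vcl* (r = 0.960) and *Mapk4* (r = 0.929). The neuropeptide gene *Hcrt* was among the closest for both *C1ql3* (r = 0.988, with *Rgs10* at 0.987) and *Nrn1* (r = 0.984, with *Elavl2* at 0.993). For these last 2 genes the ranking rests in part on background, since the values on the 4 arrays of the Arc and VMH were not measured.

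The receptors and partners of these proteins were present in every nucleus, and *Nrxn3* was the one that differed most. The list held 11 genes, among them *Nrxn2*, *Nrxn3*, *Grid1*, *Adgrb3*, the kainate receptor genes *Grik2* and *Grik4*, and *Dcc* and *Neo1*. All 11 were on the array and tested, and a gene counted as passing where at least 1 of its probes had a limma p under 0.05 after adjustment over all probes tested. In the Arc against the VMH, 2 of the 11 passed the adjusted limma test, *Nrxn3* higher in the Arc and *Grik4* higher in the VMH, where 3.49% of all named genes were called higher in the Arc and 5.2% in the VMH. In the VMH against the DMH only *Nrxn3* passed, higher in the DMH, where 1.67% of all genes were called higher in the VMH and 1.45% in the DMH. In the VMH against the LH, *Nrxn3* was higher in the LH and *Grik4* in the VMH, against 4.75% and 2.97% of all genes in these directions. No receptor or partner passed in the Arc against the DMH (background 0.934% higher in the Arc, 1.07% in the DMH), the Arc against the LH (4.16% and 9.3%), or the DMH against the LH (0.296% and 1.12%), by limma, and at an unadjusted p under 0.05 there were 1, 3, and 1. In the Arc against the LH the count was 1 without VMH1 and 1 without VMH2. Over the 11 genes, the median log2 difference was -0.15 for the Arc minus the VMH and -0.36 for the VMH minus the LH, beside 0.01 and 0.02 over all probes tested.

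*Nrxn3* was lower in the VMH on all 5 of its probes, but by unequal amounts. Probe A_55_P2105403 had signals of 3318 and 2588 in the VMH, against 32966 and 34307 in the Arc, 38125 and 37871 in the DMH, and 41416 and 38396 in the LH. The VMH arrays were far below all others and the other 3 nuclei were close together. In log2, the VMH was lower than the Arc by 3.52 (SE 0.21, limma adjusted p = 0.000557), than the DMH by 3.70 (adjusted p = 0.000671), and than the LH by 3.77 (adjusted p = 0.000478), and these 3 calls held with each array left out. On the other 4 probes the LH exceeded the VMH by 1.49 to 1.53, with adjusted p between 0.0129 and 0.0273, and of these probes 1, A_55_P1963889, passed against the Arc (log2 difference 1.01, adjusted p = 0.0467) and 0 passed against the DMH. The call of this probe against the Arc was lost with the replicate block (adjusted p = 0.0632) and without any single array of the Arc, VMH, or DMH. The calls of the 4 probes against the LH were each lost without VMH2. Those of A_55_P1963889, A_55_P2054640, and A_66_P127136 were also lost without VMH1. That of A_66_P127136 was lost as well without LH1 or any single array of the Arc or DMH. The 3 GABA neuron markers, with the sums given for *Cbln4*, were also lowest in the VMH, and their part in the *Nrxn3* difference was not tested.

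**Figure D5:**
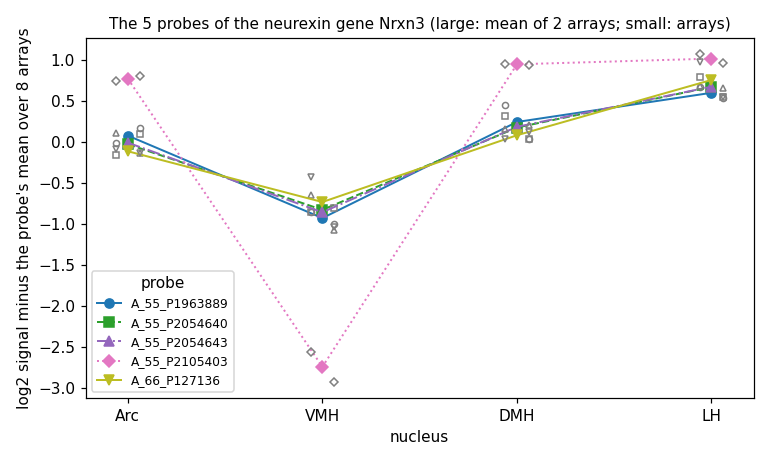
Log2 scaled signal of the 5 probes of *Nrxn3* in each nucleus, minus the mean of each probe over the 8 arrays, with large symbols for the mean of 2 arrays and small gray symbols for single arrays. All 5 probes are lowest in the VMH, and probe A_55_P2105403 falls farthest there, 3.77 below the LH.

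*Grik4*, encoding a kainate receptor subunit (probe A_51_P384994), had signals of 3036 and 2848 in the VMH and 1345 to 1876 on the other 6 arrays. The VMH exceeded the Arc by 1.05 (SE 0.21, limma adjusted p = 0.0327) and the LH by 0.95 (adjusted p = 0.0479). The first call was lost without either Arc, VMH, or DMH array (adjusted p 0.0621 to 0.209), and the second with the replicate block (adjusted p = 0.0633) and without any single array (0.0641 to 0.224). Among the receptors that passed no comparison, *Dcc*, encoding a netrin receptor that Cbln4 also binds, differed most between the LH and the Arc, by 1.61 (SE 0.41, adjusted p = 0.0543) on probe A_55_P2021744, by 1.1 (SE 0.27, adjusted p = 0.0507) on A_65_P07978, and by 0.34 on A_55_P1961761, with the LH higher on all 3. The largest difference of *Nrxn2* was 0.48, between the VMH and DMH. *Adgrb3*, the receptor of the C1q-like proteins, ranged from 567 to 1585 over the 8 arrays, with the Arc arrays overlapping every other nucleus. *Grid1* ranged from 515 to 1283, and its LH arrays overlapped every other nucleus.

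Of 14 relatives by domain or paralogy, all on the array, 8 were tested and 0 were called by limma in any of the 6 comparisons, with 0 to 4 at an unadjusted p under 0.05. Over all genes, the share called was 0.296% to 9.3% in each comparison and direction, so that 0 of 8 is near the background. The genes tested were *Nrn1l*, the paralog of *Nrn1*, the complement genes *C1qa*, *C1qb*, and *C1qc*, and *C1qtnf1*, *C1qtnf4*, *C1qtnf5*, and *C1qtnf12*. *Adipoq*, *C1qtnf2*, *C1qtnf3*, *C1qtnf6*, *C1qtnf7*, and *C1qtnf9* were not measured on both arrays of any nucleus. *Nrn1l* was measured in all 4 nuclei, unlike *Nrn1*, at 975 and 924 in the LH, 576 and 697 in the DMH, 765 and 616 in the Arc, and 359 and 579 in the VMH. Both paralogs were thus highest in the LH, but the 1.06 (SE 0.28) by which the LH exceeded the VMH in *Nrn1l* did not pass the adjusted test.

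Among other synaptic organizers, the genes that passed against the Arc were all higher in the other nucleus. This list of 22 genes held neuroligins, LRRTM, SLITRK, and LGI proteins, neuronal pentraxins, receptor tyrosine phosphatases, and *Il1rapl1*, of which 20 were on the array and tested and *Lrrtm4* and *Nptxr* had no named probe. In the Arc against the VMH, 8 of 20 passed, all higher in the VMH, with 5.2% of all genes called in this direction. In the Arc against the LH, 7 passed, all higher in the LH, against 9.3% of all genes, and 4 passed in the VMH against the DMH, all higher in the VMH, against 1.67%. Between the VMH and the LH, 2 were higher in the VMH and 1 in the LH, against 2.97% and 4.75% of all genes. *Nptx2* alone passed between the Arc and the DMH, higher in the DMH (1.07% of all genes), and by limma 0 passed between the DMH and the LH (0.296% and 1.12%), with 5 at an unadjusted p under 0.05. With the replicate block, this *Nptx2* call (limma adjusted p = 0.0527) and that of *Slitrk5* in the VMH against the DMH (0.0523) were lost. The counts above include *Nptx1* and *Il1rapl1*, whose probes were at background in a nucleus compared. Counting a call only where the probe was measured on both arrays of both nuclei left 18 genes, of which 6 were higher in the VMH than in the Arc, 6 in the LH than in the Arc, and 3 in the VMH than in the DMH, against 4.64%, 8.69%, and 1.3% of all genes so measured, and between the VMH and the LH 1 in each direction, against 2.16% and 3.93%. The median log2 difference over the 20 genes was -0.83 for the Arc minus the VMH and -0.53 for the Arc minus the LH, beside 0.01 and 0.05 over all probes. Of 4 general neuron markers, *Rbfox3*, *Syt1*, and *Stmn2* had their lowest mean in the Arc, whereas *Snap25* had it in the DMH. The means of *Rbfox3* over the Arc, VMH, DMH, and LH were 3169, 11474, 5569, and 7294, those of *Syt1* 5133, 9922, 7800, and 12074, and those of *Stmn2* 16788, 28630, 23477, and 30577, the last from LH2 alone. *Snap25*, the remaining marker of this list of 4, had 66052, 83297, 62547, and 69535. All 4 were measured on every array with a value, and the sum without *Stmn2* was 74252 to 74455 on the Arc arrays, 98141 to 111245 on the VMH arrays, 74223 to 77609 on the DMH arrays, and 73107 to 104698 on the LH arrays. On DMH1 and LH2 this sum lay below both Arc arrays. The 5 oligodendrocyte markers, all measured on every array, had their lowest sums in the Arc, 10926 to 17807, against 30484 to 37412 in the VMH, 25908 to 26865 in the DMH, and 97244 to 102585 in the LH. The 3 markers of ependymal cells and tanycytes ran the other way, with sums of 2592 to 2681 in the Arc and 910 to 1457 elsewhere. Of these 3, *Rax* had means of 1549 in the Arc and 74.2 to 99.3 elsewhere, where it was measured on 1 array, while *Ccdc153* was 813 to 1023 over the nuclei and *Foxj1* was measured on 0 arrays. The part of these cell types in the differences of the organizers was not tested. The 8 calls in the Arc against the VMH were 3 or 4 without either Arc array or either VMH array, the 7 against the LH were 2 without Arc1 and 4 without Arc2, and the 4 in the VMH against the DMH were 2 without either array of the Arc, VMH, or DMH. *Nptx2* in the Arc against the DMH was lost without any array of the Arc, VMH, or DMH, and in the VMH against the LH the 3 calls were 1 without VMH2 and 5 without LH2. Between the DMH and the LH, the count was 1 without LH1 and 1 without LH2.

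The neuronal pentraxins, secreted proteins that cluster AMPA receptors, were highest in the VMH, like *Cbln1* and *C1ql2*. *Nptx2* (probe A_52_P187058) was 6115 on VMH1 and 7323 on VMH2, 2081 and 1816 in the LH, 1240 and 952 in the DMH, and 387 and 376 in the Arc, so its nuclei followed the order of *Cbln1* without overlap. The VMH exceeded the Arc by 4.13 (SE 0.22, limma adjusted p = 0.000394), the DMH by 2.62 (adjusted p = 0.00321), and the LH by 1.78 (adjusted p = 0.00846), the last call being lost without VMH2 (0.0581). On a second *Nptx2* probe, A_55_P2147696, the VMH exceeded the Arc by 3.65 (adjusted p = 0.00165), the DMH by 2.08 (adjusted p = 0.0208), and the LH by 1.54 (adjusted p = 0.0358). The first of these calls held with each array left out, the second was lost without any single array of the Arc, VMH, or DMH (0.0529 to 0.13), and the third with the replicate block (0.0541) and without LH2 or any single array of the Arc, VMH, or DMH (0.0635 to 0.168). Its call in the Arc against the LH (adjusted p = 0.00896) was lost without Arc1 (0.0763). *Nptx1* was measured only in the VMH, at 345 and 429, which was at least 3.4-fold higher than the Arc, 4.11-fold than the DMH, and 3.76-fold than the LH. Its probe entered the test only through the VMH, where it was high, and its calls (limma adjusted p 0.000394 to 0.000463, or 0.00882 to 0.0108 with dim signals raised) compare that level with background, so nothing is read from them beyond the bounds. *Slitrk5* was higher in the VMH than in the Arc by 1.88 (SE 0.19, adjusted p = 0.0034), and *Lgi1* on probe A_52_P298394 by 1.35 (SE 0.24, adjusted p = 0.021) and on probe A_52_P609695 by 1.62 (SE 0.33, adjusted p = 0.0365). The first *Lgi1* probe also passed in the VMH against the DMH, by 1.43 (adjusted p = 0.0322), and kept both calls with the replicate block (0.0225 and 0.0352), whereas the second lost its call there (0.0543). Without any single array of the Arc, VMH, or DMH these 3 *Lgi1* calls were lost (adjusted p 0.0548 to 0.21). *Il1rapl1* entered the test only through the VMH as well, at 194 and 215, at least 1.81-fold above the Arc, where it was not measured. Its call there (adjusted p = 0.00935) was lost with dim signals raised (0.0569), with normexp (0.061), and without Arc2, VMH1, or VMH2 (0.0607 to 0.0696). Its call in the Arc against the LH (adjusted p = 0.031), where it was measured on 0 Arc arrays and 1 LH array, was lost with dim signals raised (0.43), with normexp (0.0924), and without any single array (0.0502 to 0.152). *Lgi2*, a secreted ligand of ADAM receptors, was highest in the LH and exceeded the Arc there by 2.14 (SE 0.21, adjusted p = 0.00268). *Ptprd*, a presynaptic receptor phosphatase (probe A_55_P2227321), was highest in the LH as well, above the Arc by 1.76 (SE 0.26, adjusted p = 0.00982) and above the VMH by 1.36 (adjusted p = 0.0334). The second call was lost with the replicate block (adjusted p = 0.0516) and without Arc2, LH1, or any single array of the VMH or DMH (0.0511 to 0.177), and the first without Arc1 (0.0723). On the other called probe, A_55_P1987694, the LH exceeded the Arc by 1.25 (adjusted p = 0.0134) and the VMH by 1.06 (adjusted p = 0.0322), calls that were kept with the replicate block and lost without either Arc array for the first (0.0794 and 0.0982), and without LH1 or any single array of the Arc, VMH, or DMH for the second (0.0671 to 0.156). *Lrrtm1*, *Lgi3*, and *Grik4* also passed at least 1 comparison. These 3 and *Dcc*, *Nrxn2*, *Adgrb3*, *Grid1*, and *Nrn1l*, which passed none, were named after their values were seen.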

How the data were processed

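Total RNA from laser-microdissected Arc, VMH, DMH, and LH was amplified as cDNA, labeled, and hybridized to 8 one-color Agilent arrays on 1 slide, per the labels and the methods. The authors deposited the processed signal intensity of every spot from Agilent Feature Extraction, background-subtracted and without scaling between arrays. The software version is 11.5.1.1 in the submitters' processing notes and 10.7.3.1 in the file headers, and the dye is Cy3 in the labels but Cy5 in the methods, while the files hold the red channel. A second deposited table gives this intensity for every probe and array.

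Spots marked as outliers were left out, replicate spots were reduced to their mean, and signals were scaled to the 75th percentile of the array before taking log2. A probe was measured on an array when at least as many of its spots were well above background as not. Tests covered the 28896 probes (13167 named genes) measured on both arrays of at least 1 nucleus, in 1 limma 3.58.1 model (R 4.3.3) with 4 residual and 3.02 prior degrees of freedom, and p-values were adjusted by Benjamini and Hochberg in each of 6 comparisons at 0.05. Of 28390 probes with a RefSeq accession, 26762 (94.3%) were named through the GRCm38.p6 annotation, which also gave the promoters. A lower bound sets the mean of the measured nucleus against, on each array of the other, the higher of its own signal and the lowest measured one, as means of log2 values.

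The 9 genes, the lists, and the tests were chosen with earlier results of these data known. Named were all 9 genes, the listed genes passing at least 1 comparison or the 8 with the largest range where more did, and for each measured gene the 2 genes of most similar profile. The report also gives, chosen after their values were seen, values of *Grik4* and of some listed genes that passed no comparison. Some listed genes are counted but not reported here by name. The alternatives were no scaling, quantile normalization, normexp with an offset of 50 on the median signal and background, the table of all arrays, no filter and a filter on all 8 arrays, keeping outlier-marked spots, a block for the replicate number, raising dim signals to the lowest measured one, trended and robust moderation, and each array left out. Counting only calls of probes measured on both arrays of both nuclei was added after seeing the data. With 2 arrays in each nucleus, precision is limited by their number.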

Additional observations from a re-analysis of the deposited data

How the results depend on the processing

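Of 234 recomputed differences of the 7 measured genes, 212 moved by less than the spread between replicates and 22 by more. The 212 include settings that could not move a difference, namely the changes of filter and the leaving out of an array of another nucleus. Their number is therefore no measure of stability. Of the 234, 5 changed sign, all for *Cbln2* in the LH minus the DMH or *Cbln4* in the Arc minus the DMH. The order of the 2 nuclei is therefore not given by these data in those cases. Lower values of *Nrn1* and *C1ql3* in the Arc and VMH are limited by the background, and the LH minus VMH differences of 6.58 and 4.86 became 3.81 and 2.89 with normexp, where *C1ql2* in the VMH minus the DMH also went from 3.52 to 2.38, and 4.35 and 2.76 with dim signals raised. A filter on all 8 arrays, which leaves 4 of the genes, gave 3 instead of 6 with both arrays of the highest nucleus above the rest and 2 instead of 5 with a 4-fold range. With 1 array left out, its nucleus needed only the remaining array to pass, which is an easier rule. Without DMH2, *C1ql4* entered through DMH1 alone. Counts from these settings are therefore not set beside the 6 and the 5.

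Of 481 recomputed calls of the named list genes, 383 were kept, 98 lost, and 0 reversed. For the receptors and partners, the 2 calls in the Arc against the VMH became 1 without scaling and without the filter, and the 2 in the VMH against the LH became 1 in the same settings. The 0 in the Arc against the LH became 1 without scaling, with quantile normalization, and with dim signals raised, 2 with normexp and the filter on all 8 arrays, and 3 with trended and robust moderation. For the other organizers, the 7 in the Arc against the LH became 4 without scaling, and the 4 in the VMH against the DMH became 2 without scaling and without the filter. The 1 in the Arc against the DMH became 2 with normexp and with trended moderation and 0 without the filter. The 3 in the VMH against the LH became 5 with normexp and with trended moderation, and the 0 in the DMH against the LH became 1 with normexp, the filter on all 8 arrays, dim signals raised, and trended moderation. Without scaling, the median of all probes moved to between -0.46, in the Arc minus the DMH, and 0.33, in the DMH minus the LH. The cause of the changes in these counts was not tested.

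With 1 array left out, the receptor counts ranged from 1 to 2 in the Arc against the VMH, 0 to 0 in the Arc against the DMH, 0 to 1 in the Arc against the LH, 1 to 1 in the VMH against the DMH, 1 to 1 in the VMH against the LH, and 0 to 0 in the DMH against the LH. In the same order, the counts of the other organizers ranged from 3 to 9, 0 to 1, 2 to 8, 2 to 4, 1 to 5, and 0 to 1. The lone array of a nucleus was then assumed to vary like the others.

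The replicate number was not taken as pairing, since the deviations of same-numbered arrays correlated at -0.03 to 0.26 and not all above 0.1, and replicate numbers coincide with the row of the slide. With the replicate block, 1 receptor was called instead of 2 in the VMH against the LH (*Grik4* at an adjusted p of 0.0633), 0 other organizers instead of 1 in the Arc against the DMH (*Nptx2* at 0.0527), and 3 instead of 4 in the VMH against the DMH (*Slitrk5* at 0.0523). The calls of 1 *Ptprd* probe (0.0516) and 1 *Nptx2* probe (0.0541) in the VMH against the LH and of 1 *Lgi1* probe (0.0543) and 1 *Nrxn3* probe (0.0632) in the Arc against the VMH were also lost, while the counts of 3 and 8 other organizers and of 2 receptors in the Arc against the VMH stayed.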
